A study of Mus musculus with 16 samples.

Results

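Cycling splenic B cells are the cells of 4 spleen libraries whose own counts held the B cell receptor gene Cd79a together with genes of dividing cells. A barcode was selected on its measured values: at least 1 unique molecular identifier (UMI, 1 captured RNA molecule) of Cd79a, at least 1 of Stmn1, at least 1 summed over Mki67, Top2a, Rrm2 and 2810417H13Rik (the gene of Pclaf, a clamp-associated factor of DNA replication), none of Cd3e, Cd3d and Cd3g, and at most 2 of Lyz2. This gave 50 cells of 5795 Cd79a cells, or 0.863%, among 8599 filtered cells, 8686 spleen barcodes and 37609 barcodes in the 16 libraries of the series. The other 5745 Cd79a cells, which met the same limits on Cd3 genes and Lyz2, served as the comparison.

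Single-cell RNA was counted from the 3′ end with droplets in sorted CD45+ cells from mice that carried subcutaneous MC38 colon carcinoma tumors. Littermates, *Aire*+/+ or *Aire*-/- on a C57BL/6 background, 8 weeks old, received an antibody to PD1 (aPD1) or an isotype control at 5 mg/kg into the peritoneum, and organs were taken on day 19. Spleens were pooled within a condition, so each of the 4 conditions is 1 library and the cells within it are not replicates of the condition. No test between conditions was run, and intervals (95%) below cover counting error only. Values of the 4 libraries are always listed with *Aire*+/+ before *Aire*-/- and, within a genotype, isotype before anti-PD1.

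The libraries held 12181206, 10987970, 11227539 and 12636201 UMIs over 2119, 2117, 2048 and 2402 barcodes. Aire, the gene deleted in the knockout, had 2, 5, 4 and 0 UMIs in them, and 0 in the cycling B cells, too few to check the genotype from RNA. Pairs of libraries shared between 3 and 16 barcode sequences, 44 over the 6 pairs, and none belonged to a cycling B cell. In the 12 tumor and sorted libraries outside these 4, 1 of 28854 filtered cells met the same limits.

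B cells divide in the spleen mainly when they respond to antigen. Within a follicle, responding cells can form a germinal center, where they copy their DNA, mutate their antibody genes and switch heavy chain class, while outside it they can become plasmablasts that secrete antibody. Resting follicular B cells instead recirculate, a state that the transcription factor Klf2 and its target S1pr1, the receptor that guides cells out of the organ, are known to maintain.

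Cycling B cells were rare in every library. They numbered 15 of 1371, 15 of 1418, 8 of 1320 and 12 of 1686 Cd79a cells, which is 1.09% (Clopper-Pearson interval 0.614% to 1.80%), 1.06% (0.593% to 1.74%), 0.606% (0.262% to 1.19%) and 0.712% (0.368% to 1.24%). Both *Aire*-/- libraries were lower than both *Aire*+/+ libraries, but the intervals of all 4 overlap, and the order did not hold in each alternative. The share in *Aire*-/- was 0.554 times that in *Aire*+/+ under isotype (conditional exact interval 0.203 to 1.39) and 0.673 times under anti-PD1 (0.288 to 1.54). Anti-PD1 over isotype gave 0.967 in *Aire*+/+ (0.440 to 2.12) and 1.17 in *Aire*-/- (0.441 to 3.31). A difference was not detectable at this number of cells, since each of these intervals holds 1. Without barcodes that held at least 2 UMIs of a list of another lineage, which left 2, 6, 2 and 2 cells, *Aire*-/- over *Aire*+/+ under isotype turned to 1.12 and anti-PD1 over isotype to 2.76 in *Aire*+/+ and 0.738 in *Aire*-/-. Under anti-PD1, *Aire*-/- over *Aire*+/+ fell to 0.299 in that setting.

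**Figure D1:**
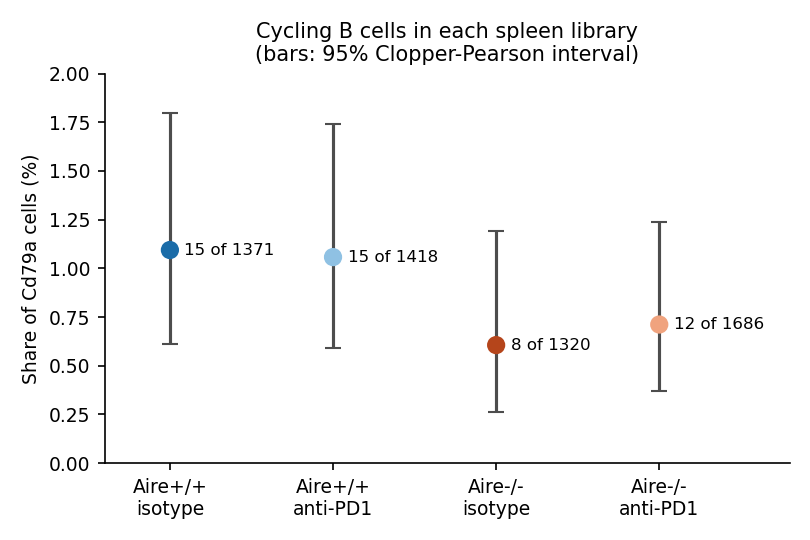
Share of Cd79a cells (%) that met the limits for cycling B cells in each of the 4 spleen libraries, with 95% Clopper-Pearson intervals and the counts beside each point. The shares run from 0.606% to 1.09% and all intervals overlap.

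The genes that chose the cells are given as a description. Stmn1, which binds tubulin dimers and takes apart microtubules, stood at 911, 739, 734 and 596 CPM (UMIs of the gene in each 1000000 UMIs) in the cycling cells and at 11.4 to 16.9 CPM in the other Cd79a cells. Mki67, which coats mitotic chromosomes, stood at 363, 194, 142 and 277 CPM, Top2a, the topoisomerase that untangles them, at 569, 251, 252 and 493 CPM, and Rrm2, a subunit of the enzyme that makes deoxynucleotides, at 386, 136, 268 and 377 CPM. 2810417H13Rik had 1134, 545, 402 and 654 CPM. These 4 genes were highest in the *Aire*+/+ isotype library. Cd79a itself was lower in the cycling cells, 1700, 2769, 1767 and 1689 CPM against 3699, 3887, 3925 and 4086 CPM, with at least 3 UMIs in every cell.

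Some cells lay at the limits. Among the 50 cells, 12 had a single Stmn1 UMI, 13 a single UMI over the 4 cell-cycle genes, and 9 had both (3, 3, 0 and 3 by library). These 9 cells held 1020 CPM of a list of 26 DNA replication genes and 3347 CPM of 12 recirculation and quiescence genes, whereas the other 41 held 5300 and 1054 CPM. The median of the 9 cells was 653 CPM of the replication list, and they held 207 CPM of 28 mitosis genes against 2478 CPM in the 41. Just outside, 350 Cd79a cells had Stmn1 without a cell-cycle UMI and held 651 CPM of the replication and 180 CPM of the mitosis list, and 154 had a cell-cycle UMI without Stmn1 and held 509 and 210 CPM, against 535 and 150 CPM in the 5241 cells with neither. By pooled mitosis CPM and by replication median, the 9 cells just inside were close to the cells just outside, whose replication medians were 549 and 497 CPM. By pooled replication CPM they were higher, as they were by mitosis median, 218 CPM against 35.6 and 113 CPM. A further 3 barcodes met every limit except the one on Cd3 genes, and 1 every limit except that on Lyz2.

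Cycling B cells were deep. Their median UMIs were 16869, 7860, 14113 and 19323, against 4211, 4159, 4439 and 4280 in the other Cd79a cells and 5810, 5580, 5531 and 5209 in T cells (at least 2 UMIs of the Cd3 genes and no Cd79a). No barcode was removed as a doublet. Dividing cells hold more RNA, and barcodes with more UMIs also pass a limit of 1 UMI more easily, so depth and the choice of cells cannot be told apart. With every cell drawn down to 2000 UMIs before the limits were applied, 24 cells met them.

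A gene was called higher in cycling B cells at a log2 ratio of at least 1 over the other Cd79a cells in all 4 libraries, with 10 CPM added to each side, and lower at −1 or below. Of 5461 genes with a mean of 20 CPM, 210 (3.85%) were higher and 60 (1.10%) were lower, and the median log2 ratio over all of them was 0.04 (0.10, 0.09, 0.10 and 0.02 by library). Because the same counts chose the cells, these calls carry no test. The mean is over cycling and other cells, so a gene low in the other cells could pass only where the cycling cells held it, and 123 of the 210 higher genes but none of the 60 lower ones had a mean under 20 CPM in the other Cd79a cells. Of 5026 genes at 20 CPM there, 87 (1.73%) were higher and 60 (1.19%) lower, with a median log2 ratio of −0.02. Counts of the lists of dividing and germinal center cells below are over genes at that level in the other cells. Of the 210 genes, 5 belonged to the choice of cells, 82 to the lists below and 123 to neither. Of the 60 lower genes, 8 were on the lists and 52 were not. Without the *Aire*+/+ anti-PD1 library, 277 genes were higher and 121 lower, and without barcodes that held at least 2 UMIs of a list of another lineage, which left 12 cycling cells, 51 were higher and 31 lower. The latter setting kept 37 of the 210 higher and 8 of the 60 lower genes. Of the 38 cells left out there, 33 had at least 2 UMIs of the conventional dendritic list and 21 were left out by that list alone. Cst3, its most abundant gene, stood at 160, 373, 205 and 203 CPM in the cycling and 235, 246, 264 and 255 CPM in the other Cd79a cells, and without Cst3 on the list 18 cells would be left out. The setting left out 76% of the cycling and 34.0% of the other Cd79a cells, and without Cst3 36% and 5.73%. The part of depth in these shares was not tested.

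DNA replication genes were higher in cycling B cells of every library. All 26 passed the limit, 14 of them only through the cycling cells. Of the 12 at 20 CPM in the other cells, 11 were called higher and none lower, with a median log2 ratio of 2.45. Together the 26 held 5339, 3903, 5474 and 4855 CPM in the cycling cells and 520, 524, 566 and 552 CPM in the others, so all 4 libraries were high, with the *Aire*+/+ anti-PD1 library lowest. Mcm3, part of the helicase that opens DNA at origins, had 359, 280, 434 and 290 CPM against 27.8, 21.2, 23.8 and 23.3 CPM. Lig1, which joins the fragments of the lagging strand, had 286, 187, 181 and 203 CPM against 11.6, 9.396, 11.4 and 12.6 CPM. Pcna, the sliding clamp of the polymerases, had 329, 323, 339 and 294 CPM against 41.2, 38.6, 38.03 and 36.1 CPM and so varied little between libraries. Cdc6, which loads the helicase, had 39.9, 50.2, 70.99 and 33.1 CPM in cycling cells and at most 0.152 CPM in the others. Cdt1, its partner, was not called.

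Mitosis genes followed the same course with more spread between libraries. Of 28 genes 23 passed the limit, 21 of them only through the cycling cells, so the number called is no support. Of the other 2, Smc4 was called higher and Cenpa was not. Cdc20, Bub1b and Cenpe were not called either. The list held 2724, 2145, 1246 and 2421 CPM in the cycling cells and 159, 152, 162 and 145 CPM in the others. The *Aire*-/- isotype library, with 8 cells, was the lowest. In the 4 libraries 1 cell held 18.7%, 32.4%, 50.6% and 32.5% of the UMIs of the list. In the *Aire*-/- anti-PD1 library that cell held 190 of the 585 UMIs and also 341 UMIs of a list of NK cell genes. Ube2c, which marks mitotic proteins for destruction, had 123, 86.1, 103 and 166 CPM against 0.606 to 1.04 CPM, and Ccnb2, a cyclin of mitotic entry, had 110, 136, 70.99 and 112 CPM against 0.123 to 1.21 CPM. Ccna2, the cyclin of S and G2 phase, had 193, 122, 23.7 and 149 CPM, with the *Aire*-/- isotype library low.

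Of 18 genes of chromatin assembly and tubulin 15 were at 20 CPM in the other cells, and 13 of these were called higher and none lower, with a median log2 ratio of 1.802. Hmgb2, a DNA-bending chromatin protein, had 1720, 1736, 1238 and 1428 CPM against 98.5, 108, 94.99 and 91.8 CPM, and H2afz, a histone variant, had 1660, 990, 1483 and 1341 CPM against 222, 186, 237 and 221 CPM. Lmnb1, a protein of the nuclear lamina, had 383, 265, 245 and 327 CPM against 33.3, 34.4, 28.03 and 32.2 CPM. All 4 libraries were high for each of them. Of 12 DNA repair genes 5 passed the limit, 4 of them only through the cycling cells, and the other 1 was not called. Ung, which removes uracil from DNA, was among those that passed only through the cycling cells, so its call is no support. It had 116, 57.4, 63.1 and 95.2 CPM against 10.1, 8.79, 7.73 and 10.8 CPM. Replication-dependent histones, most of whose transcripts lack a poly(A) tail and whose reads can match several near-identical copies, are uncertain. Of 68 genes 16 passed the limit, 11 of them only through the cycling cells, and none of the other 5 was called. The list held 1440, 560, 1081 and 2388 CPM, of which 1 cell held 81.8% in the *Aire*-/- isotype library.

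Cell by cell, the replication and mitosis programs overlapped. With at least 10 UMIs as the limit, 38 of the 50 cells held the replication list and 24 the mitosis list, and all 24 also held the replication list. The 12 cells with fewer than 10 of either had a median of 3918 UMIs, and 7 of them came from the *Aire*+/+ anti-PD1 library. Depth therefore moves with this split, and its part in it was not tested.

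**Figure D2:**
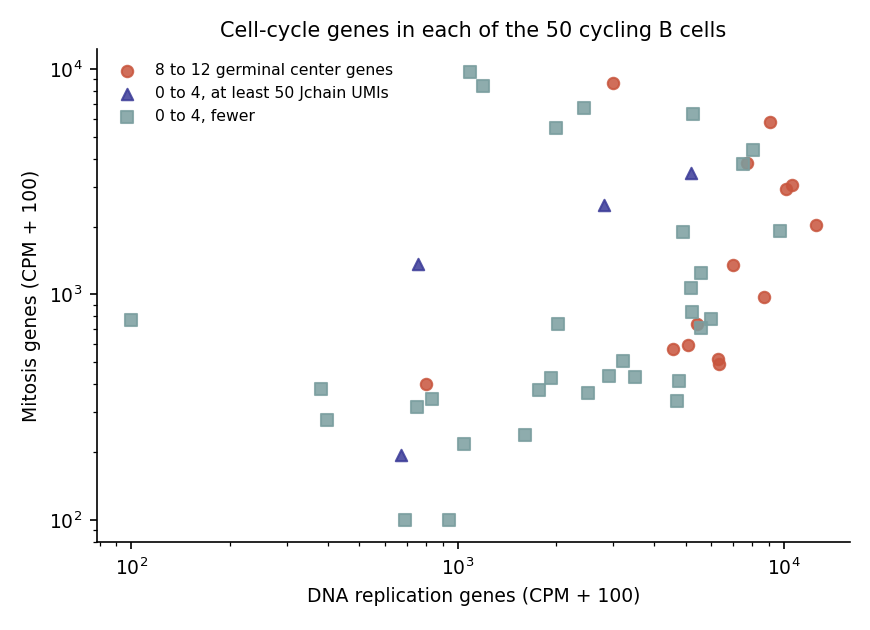
DNA replication genes against mitosis genes in each of the 50 cycling B cells (CPM plus 100, both axes logarithmic), by the number of germinal center genes with a UMI and by Jchain. Of these cells, 38 had at least 10 UMIs of the replication list and 24 had at least 10 of the mitosis list.

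Some promoters of these genes hold letters known from cell-cycle genes. In the RefSeq promoter set for build GRCm38.p6 (300 bases for each of 32851 promoters of 27025 genes, of which 23 of 26 replication and 23 of 28 mitosis genes had an entry), both strands were searched for E2F-type letters (TTTGGCGC, TTTCCCGC or TTTCGCGC), the CHR-type letters TTTGAA and the letters CCAAT. E2F-type letters were in 11 of 23 replication genes (47.8%) and in 2.12% of all genes. CHR-type letters were in 16 of 23 mitosis genes (69.6%) against 20.2% of all genes, CCAAT in 20 (87.0%) against 41.1%, and both in 16 (69.6%) against 7.97%. CCAAT was also in 14 of 23 replication genes (60.9%), and CHR-type letters were in 4 of 9 germinal center genes (44.4%), so neither is particular to the mitosis list. E2F factors are known to act at replication genes and CHR and CCAAT elements at mitosis genes. A match is a description, not a site or a cause. Shown are the replication and mitosis genes with the largest smallest-of-4 ratio, 2 of each, with matches in capitals: Mcm3 (chr1:20820263-20820562, minus strand) has 2 E2F-type and 3 CCAAT matches, Lig1 (chr7:13276925-13277224, plus strand) has none, Ube2c (chr2:164769679-164769978, plus strand) has 1 CHR-type and 6 CCAAT matches, and Ccnb2 (chr9:70421505-70421804, minus strand) has 2 CHR-type and 3 CCAAT matches. In Ube2c the run CCAATTGG holds CCAAT on both strands and counts as 2.
Mcm3: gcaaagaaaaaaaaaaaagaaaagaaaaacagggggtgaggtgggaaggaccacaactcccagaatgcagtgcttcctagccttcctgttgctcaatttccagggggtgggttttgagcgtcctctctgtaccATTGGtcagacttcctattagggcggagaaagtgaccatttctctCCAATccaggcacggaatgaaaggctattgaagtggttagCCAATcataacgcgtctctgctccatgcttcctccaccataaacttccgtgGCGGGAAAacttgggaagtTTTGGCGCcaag
Lig1: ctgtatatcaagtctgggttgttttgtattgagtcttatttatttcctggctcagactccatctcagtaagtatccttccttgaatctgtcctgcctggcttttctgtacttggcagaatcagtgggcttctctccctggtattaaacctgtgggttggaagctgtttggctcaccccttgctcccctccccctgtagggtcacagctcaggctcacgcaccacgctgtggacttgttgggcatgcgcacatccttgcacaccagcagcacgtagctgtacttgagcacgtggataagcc
Ube2c: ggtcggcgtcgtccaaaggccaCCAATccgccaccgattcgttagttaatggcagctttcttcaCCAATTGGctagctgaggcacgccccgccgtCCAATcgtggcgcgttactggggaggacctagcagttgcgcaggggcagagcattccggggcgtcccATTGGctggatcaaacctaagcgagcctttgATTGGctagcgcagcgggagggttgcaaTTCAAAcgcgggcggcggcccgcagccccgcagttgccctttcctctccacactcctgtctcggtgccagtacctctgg
Ccnb2: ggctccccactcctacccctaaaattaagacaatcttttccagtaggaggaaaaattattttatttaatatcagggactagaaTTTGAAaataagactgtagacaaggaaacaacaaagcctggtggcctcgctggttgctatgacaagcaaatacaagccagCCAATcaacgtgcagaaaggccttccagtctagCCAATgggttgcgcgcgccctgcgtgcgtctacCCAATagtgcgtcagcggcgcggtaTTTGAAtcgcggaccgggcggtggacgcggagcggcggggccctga

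Germinal center genes, which did not choose the cells, were higher in the cycling B cells of every library. Of 12 genes 10 passed the limit, each of them only through the cycling cells, so the number called is no support and a call of lower could hardly arise. The list held 848, 897, 2137 and 671 CPM against 78.03, 55.2, 58.02 and 75.3 CPM, log2 ratios of 3.29, 3.799, 4.98 and 2.996, with the *Aire*-/- isotype library highest. Mef2b, a transcription factor of germinal center B cells, had 120, 187, 371 and 57.9 CPM against 6.39, 4.395, 4.24 and 8.86 CPM. S1pr2, the receptor that confines cells to the germinal center, had 46.6, 93.3, 103 and 45.5 CPM against 1.93, 1.21, 0.757 and 2.58 CPM. Both were higher than in the other Cd79a cells in all 4 libraries, by a log2 ratio of at least 1.85. Bcl6, the master repressor of the germinal center, was below the 20 CPM limit at 7.17 to 26.6 CPM against 11.8 to 21.3 CPM.

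The germinal center genes sat in a subset of the cells. Of the 12 genes, 32 cycling B cells had a UMI of 0 to 2, 4 cells of 3 or 4, none of 5 to 7, and 14 cells (28%) of 8 to 12. The 14 cells were 5 of 15, 2 of 15, 4 of 8 and 3 of 12 by library. Among the other 5745 Cd79a cells, 7 had 8 to 12 of the genes (0.122%), and among 1633 T cells none had more than 3. The bounds of 5 and 8 were chosen after these values were seen. With the limit of 3 genes, 18 of 50 cycling cells passed (36.0%, 22.9% to 50.8%), against 30 of 5745 other Cd79a cells (0.522%) and 4 of 1633 T cells (0.245%), so that 37.5% of all Cd79a cells past that limit were cycling cells.

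**Figure D3:**
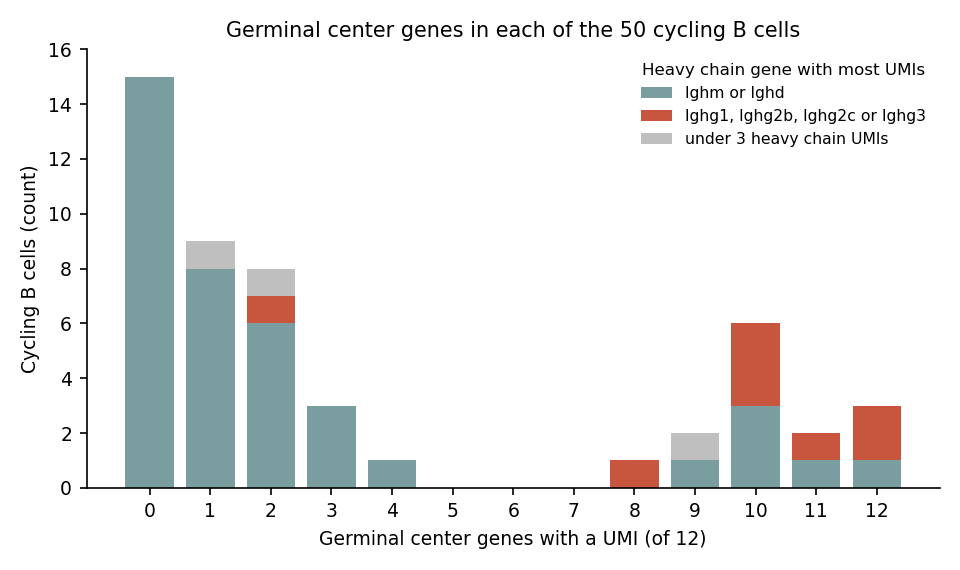
Number of cycling B cells (count) by how many of 12 germinal center genes had a UMI, with the heavy chain gene that had most UMIs in color. Cells have either 0 to 4 genes (36 cells) or 8 to 12 genes (14 cells), and 7 of the 8 cells led by an Ighg gene are in the second set.

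These 14 cells differed from the other 36 in other genes as well. Their median depth was 16434 UMIs against 12541, and the shallowest had 9565 UMIs, whereas 13 of the other 36 had fewer, down to 1496, where 8 of the genes can hardly be found. They held 7265 CPM of the replication list against 3914 CPM, and 2509 CPM of the mitosis list against 2207 CPM. The recirculation and quiescence list, which includes Klf2, stood at 535 CPM against 1552 CPM. The joining chain gene Jchain had a UMI in all 14 cells (median 10, lowest 1) but in 7 of the other 36 (median 0). These Jchain counts were not matched for depth or set against a background share of free RNA. The 23 of the 36 cells with at least 9565 UMIs, a limit set after these values were seen, held 4196 CPM of the replication, 2467 CPM of the mitosis and 1162 CPM of the quiescence list. Among cells of at least that depth, those rich in germinal center genes thus held more replication RNA and less quiescence RNA. The 7 comparison cells with as many germinal center genes held 1658 CPM of the replication list and 1122 CPM of the quiescence list. By the choice of cells these 7 lacked Stmn1 or any UMI of the 4 cell-cycle genes, and their median depth was 7723 UMIs. Their values are thus bound to that choice and not matched for depth.

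T cells, which should lack most of these transcripts, are set beside them as a measure of free RNA. At 2000 UMIs per cell, which left 48 cycling cells, Mef2b had a UMI in 20.8% of them, in 0.867% of the other Cd79a cells and in 0.0624% of 1603 T cells. Gcsam, a membrane-linked signaling protein of germinal center B cells, was found in 18.8%, 0.0885% and 0% (a count of 0 allows up to 0.2299%). Fas, a death receptor, was found in 10.4% against 1.15%, but T cells, which express it, had 6.74%. Any gene of the list was found in 39.6% of cycling cells, 9.82% of other Cd79a cells and 11.7% of T cells. The cycling share stood above the T cell share for each of these genes. For Fas the margin was small for 48 cycling cells, and no difference is read from it. As T cells express Fas, their share for any gene of the list does not measure free RNA.

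Heavy chain class moved with the germinal center genes. Ighm had most heavy chain UMIs in 36 of the 50 cells, Ighd in 3, an Ighg gene in 8 (Ighg2c in 4, Ighg2b in 2, Ighg1 and Ighg3 in 1 each), and 3 cells had fewer than 3 heavy chain UMIs. Of the 8 cells led by Ighg, 7 were among the 14 with 8 to 12 germinal center genes and 1 was among the other 36. Ighg genes are alike in sequence, so which of them leads is uncertain. Ighd, the second heavy chain class of naive B cells, was called lower, at 63.2, 136, 39.4 and 91.1 CPM against 499, 511, 415 and 452 CPM, and Igha, the class of mucosal antibodies, had 3.33, 0, 7.89 and 4.14 CPM against 284, 455, 95.7 and 137 CPM. Igha was thus near 0 in cycling cells of every library. Of 9 immunoglobulin genes tested these 2 were lower and none higher, with a median log2 ratio of 0.47.

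A few cells carried most of the antibody secretion RNA. Plasmablast genes were called higher in 1 of 9, Slamf7, a surface receptor of the SLAM family, and lower in none, with a median log2 ratio of 1.16. The list held 2704, 5410, 12793 and 6920 CPM against 3576, 2202, 2566 and 3320 CPM, high in 3 libraries and below the other cells in the *Aire*+/+ isotype library, and a single cell held 55.2%, 72.4%, 81.3% and 86.6% of its UMIs in the 4 libraries. Cells with at least 50 Jchain UMIs numbered 1, 1, 2 and 1, and 1 of these 5 was among the 14 cells with 8 to 12 germinal center genes. Without these 5 cells the mean log2 ratio of the list was −1.01 and that of the immunoglobulin list was −1.09. Only the cycling side lost cells there, as the other Cd79a cells kept their 29 cells with at least 50 Jchain UMIs. The fall of both ratios is therefore set by the choice and carries no conclusion.

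Recirculation and quiescence genes were lower on average, with less agreement between libraries. Of 11 tested, Btg1, which slows proliferation, and Tsc22d3, a glucocorticoid-induced gene, were called lower and none higher, with a median log2 ratio of −1.39. The list held 1021, 2160, 741 and 1217 CPM against 3543, 4084, 4039 and 4129 CPM. The *Aire*-/- isotype library was lowest and the *Aire*+/+ anti-PD1 library highest, with a log2 ratio of −0.92. Klf2 had 163, 617, 23.7 and 116 CPM against 680, 812, 830 and 900 CPM. Drawn down to 2000 UMIs, Klf2 was found in 29.2% of cycling cells against 67.1% of other Cd79a cells.

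Genes of the follicular B cell state were called lower in 3 of 7, Fcer2a, Ighd and Cd55, and higher in none, with a median log2 ratio of −2.41. Fcer2a, the low-affinity IgE receptor of follicular cells, had 43.2, 158, 78.9 and 91.1 CPM against 442, 500, 484 and 545 CPM, low in every library. Of 10 MHC class II genes, which serve antigen presentation, H2-Aa and H2-Oa were called lower and none higher, with a median of −1.17. The list stood at 18409, 26604, 18709 and 17152 CPM against 39290, 42707, 41883 and 42737 CPM, lower in every library and least so in the *Aire*+/+ anti-PD1 library. Of 14 B lineage genes none was called, with a median of −0.64, and the list held 5316, 9011, 6570 and 6515 CPM against at most 561 CPM in cycling T cells (40 T cells, chosen to lack Cd79a, that met the limits on Stmn1 and the cell-cycle genes). Each cell held at least 4 UMIs of it. The cell with 4, of the *Aire*+/+ anti-PD1 library, held 7 of the monocyte and 8 of the conventional dendritic list, and the next had 20.

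Metabolic lists were higher to a smaller extent. Glycolysis genes were called higher in 4 of 9 (Pkm, Tpi1, Pgk1 and Gapdh) and lower in none, with a median log2 ratio of 1.27. Gapdh, an enzyme of glycolysis, had 3057, 2353, 2776 and 2848 CPM against 691, 725, 826 and 784 CPM. Ribosome biogenesis genes were called higher in 1 of 15, Ranbp1, a cofactor of nuclear transport, with none lower and a median of 0.85. Both lists were lowest in the *Aire*+/+ anti-PD1 library, at 4592 and 4240 CPM, and above the other Cd79a cells in all 4.

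The remaining B cell lists showed few calls. Of 7 B activation genes Mif, a secreted cytokine, was called higher and none lower, with a median of 0.04, the same as over all genes. Dark and light zone genes (7 tested, median −0.41), marginal zone genes (7, −0.48), survival genes (7, 0.10) and type I interferon genes (5, −0.43) had no call in either direction. B1 genes (1 tested) and atypical memory genes (2 tested) had none either, and no pro-B or pre-B gene reached 20 CPM, that list standing at 6.65, 35.9, 7.89 and 8.28 CPM. Some genes of these lists moved in 1 direction in all 4 libraries by less than a call needs, such as Ccnd3 of the dark and light zone list (log2 ratios 0.78 to 1.63), Cd40 of the same list (−1.32 to −0.702), Spn of the B1 list (0.62 to 1.31) and Nfkbia of the activation list (−1.68 to −0.81). In the marginal zone list Cr2 (−1.69 to −0.44), Cd1d1 (−1.505 to −0.41) and Dtx1 (−1.203 to −0.701) were below 0 in all 4 and Cd9 (0.65 to 0.899) above.

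Markers of other lineages stood above the other Cd79a cells in some libraries, often through a single cell. The NK list of 8 genes had 103, 0, 7.89 and 1416 CPM against 32.8, 11.8, 44.2 and 52.6 CPM. A single cell of the *Aire*-/- anti-PD1 library held 341 of its 342 UMIs and 1 cell of the *Aire*+/+ isotype library 30 of 31. The monocyte list had 279, 57.4, 726 and 82.8 CPM against 74.5, 33.04, 38.9 and 62.9 CPM, and 1 cell held 95.7% of it in the *Aire*-/- isotype library, whereas in the *Aire*+/+ isotype library it was spread over 11 cells with 48.8% in 1. The former cell held 88 UMIs of the list, all of Ly6c2, and 855 UMIs of Jchain. The latter held 41 UMIs of the list and 305 of Jchain. In the *Aire*-/- anti-PD1 library a cell with 829 Jchain UMIs held 12 of the 20 UMIs of the list. These monocyte list values thus came largely from cells rich in Jchain. The T cell list had 143, 222, 181 and 137 CPM against 219, 233, 251 and 245 CPM, with Cd3e, Cd3d and Cd3g at 0 by choice. The neutrophil list had 1 UMI and the stem and progenitor list 0 in all cycling cells, the plasmacytoid dendritic list 46.6, 50.2, 31.5 and 16.6 CPM against 23.3, 31.4, 23.3 and 21.2 CPM and the conventional dendritic list 166, 387, 205 and 215 CPM against 238, 252, 268 and 258 CPM. The erythroid list had 19.96, 21.5, 23.7 and 74.5 CPM against 26.9, 19.6, 27.1 and 19.8 CPM, and in the *Aire*-/- anti-PD1 library, where it was highest, 5 cells held it, 1 of them 38.9%. Gzma was the most abundant gene of the NK list, Ly6c2 of the monocyte list, Cd2 of the T cell list, Hbb-bt of the erythroid list, Pacsin1 of the plasmacytoid and Cst3 of the conventional dendritic list. Cd4, Cd8a and Cd8b1 of T cells, Siglech of plasmacytoid dendritic cells, Clec9a and Xcr1 of conventional dendritic cells, and Klf1 of erythroid cells were at 0. Of the 8 genes tested over these lists (2 each for T cells, NK cells and monocytes and 1 for each dendritic list) none was called. Whether the single cells are doublets was not tested. Without cells that held at least 5 UMIs of the NK, neutrophil, erythroid or stem lists, 205 genes were higher and 57 lower.

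**Figure D4:**
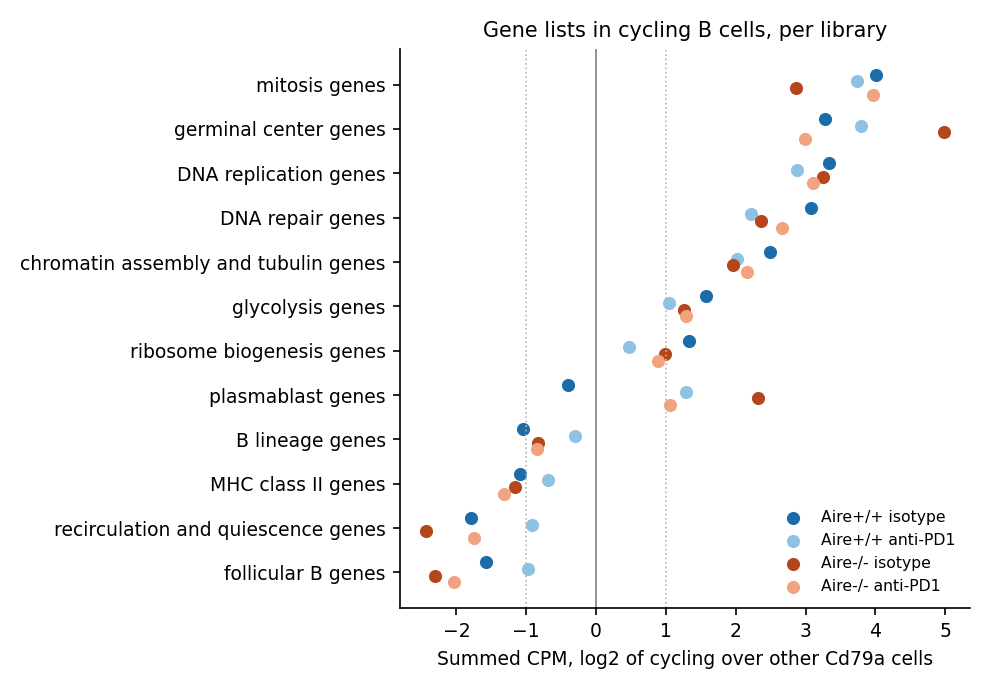
Log2 ratio of summed CPM in cycling over other Cd79a cells for 12 gene lists, 1 point per library. Replication genes lie between 2.87 and 3.34 and germinal center genes between 2.996 and 4.98, while recirculation and quiescence genes lie between −2.43 and −0.92.

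Outside the lists, the 10 genes with the largest smallest-of-4 ratio, apart from Txn1, were under 20 CPM in the other Cd79a cells and passed the limit only through the cycling cells. Spc24, a kinetochore protein, had 70.99 to 130 CPM against 0.595 to 1.36 CPM. Cdca7, a partner of the remodeler Hells, had 143 to 174 CPM against 14.4 to 18.7 CPM, and Gmnn, which blocks re-replication by binding Cdt1, had 126 to 186 CPM against 12.9 to 15.004 CPM. These 3 were higher in every library. Ezh2, the methyltransferase of histone H3 that germinal center B cells are known to need, had 100 to 142 CPM against 10.6 to 14.6 CPM. Txn1, the thiol reductase thioredoxin, had 480 to 674 CPM against 72.4 to 84.6 CPM. The other 5 were Cenpm and Apitd1 of the centromere, Tcf19, the recombination gene Fignl1, and Dtl, which targets Cdt1 for degradation in S phase, with smallest log2 ratios of 2.201 to 2.41.

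Among the 10 genes outside the lists that were lowest in cycling B cells, Txnip, which binds thioredoxin and limits glucose uptake, had 70.99 to 115 CPM against 292 to 394 CPM, the opposite direction to Txn1. Icosl, the ligand of the T cell receptor Icos, had 23.3 to 28.7 CPM against 116 to 132 CPM. Pik3ip1, an inhibitor of PI3 kinase, had 0 to 7.17 CPM against 31.1 to 60.2 CPM and rests on 3 UMIs. Icosl and Txnip were low in every library by a similar amount. Gimap6, a GTPase of lymphocytes, had 103 to 203 CPM against 506 to 560 CPM. Fam65b, Treml2, Rapgef4, Dgka and St3gal1 were also among them, with log2 ratios between −3.41 and −1.47.

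Between genotypes, Klf2 was lower in the cycling B cells of *Aire*-/- spleens under both treatments. Of 5397 genes, 32 (0.593%) were higher in *Aire*-/- by a log2 ratio of at least 1 under both treatments and 42 (0.778%) lower, against 2 (0.0377%) and 2 (0.0377%) of 5308 in the other Cd79a cells. The genes called in the cycling cells rest on few molecules, with a median of 27 UMIs in all 4 libraries for those higher and 22 for those lower, and each condition is 1 library. In sum the cycling cells held 126785 to 300613 UMIs per library and the other Cd79a cells 6598228 to 8125198. Counting error alone passes a log2 ratio of 1 far more easily in the cycling cells, so the shares called in the 2 groups are not comparable. Klf2 had log2 ratios of −2.36 and −2.32 under isotype and anti-PD1 from the levels given above, while in the other Cd79a cells it had 0.28 and 0.15. It rests on 49, 86, 3 and 28 UMIs in 6, 9, 3 and 3 cells. Vim, the intermediate filament vimentin, had 559, 868, 118 and 319 CPM, log2 ratios of −2.15 and −1.42, and Serpinb1a, a protease inhibitor, had 153, 187, 39.4 and 49.7 CPM. Both were lower in each *Aire*-/- library than in either *Aire*+/+ library. Tsc22d3 and Ubl3, a ubiquitin-like protein, completed the 5 lowest, with log2 ratios of −1.22 and −2.23, and −1.18 and −1.36. In the other Cd79a cells Tsc22d3 fell as well under anti-PD1, with −0.09 under isotype and −1.02 under anti-PD1.

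Among genes higher in *Aire*-/- cycling cells, Rgs13, a brake on chemokine receptor signals and a gene of the germinal center list, had 59.9, 14.3, 189 and 78.6 CPM, in 13 cells. Cells with 8 to 12 germinal center genes were 5 of 15, 2 of 15, 4 of 8 and 3 of 12 by library, and their part in this was not tested. In the *Aire*-/- isotype library a single cell held 54.2% of the Rgs13 UMIs, and a single cell 64.5% of those of Dynlt1b. Dynlt1b had 59.9, 43.05, 245 and 211 CPM and BC002163 43.2, 21.5, 142 and 211 CPM, and these 2 were also the genes called higher in the other Cd79a cells, at 40.3, 46.4, 125 and 117 CPM and 15.3, 14.7, 73.5 and 83.6 CPM. Both have near-identical copies elsewhere in the genome, so which copy was counted is uncertain. Fkbp11, an endoplasmic reticulum chaperone of secreting cells, had 3.33, 0, 292 and 37.3 CPM, of which a single cell held every UMI in the *Aire*-/- isotype library, and Ly6a, a surface marker of activated lymphocytes, had 585, 380, 1625 and 1225 CPM, of which a single cell held 89.3% there. Without the 5 cells rich in Jchain, the mean log2 ratio of Fkbp11 was 0.28 and that of Ly6a was −0.45, and 45 genes were higher and 68 lower. Igha and Rnaset2b, which has a near-identical copy, were the genes lower in the other Cd79a cells.

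Between treatments, Klf2 and its target S1pr1 were higher under anti-PD1 in the cycling B cells of both genotypes. Of 5397 genes, 34 (0.630%) were higher and 39 (0.723%) lower, against 0 (0%) and 0 (0%) of 5308 in the other Cd79a cells. The median gene called held 29.5 UMIs among those higher and 30 among those lower. As between genotypes, the cycling cells held far fewer UMIs in sum, so these shares are not comparable with those of the other Cd79a cells. Klf2 had log2 ratios of 1.86 and 1.903 in *Aire*+/+ and *Aire*-/-, from the same few UMIs. S1pr1, with 15, 23, 5 and 29 UMIs, had 49.9, 165, 39.4 and 120 CPM in the cycling cells and 205, 216, 232 and 260 CPM in the other cells, so it was higher in both anti-PD1 libraries than in the isotype libraries and below the other cells in all 4. Stk38, a kinase of the NDR family, had 49.9, 194, 23.7 and 74.5 CPM, and Cd84, a receptor of the SLAM family, 33.3, 122, 23.7 and 66.2 CPM. For both of them the *Aire*+/+ anti-PD1 library was the highest of the 4.

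Genes lower under anti-PD1 included Basp1, a gene of the germinal center list, at 136, 21.5, 237 and 62.1 CPM, Wdr43 of ribosome assembly at 146, 43.05, 197 and 74.5 CPM, and Timm8a1 of mitochondrial protein import at 103, 21.5, 78.9 and 24.8 CPM. Each was lower in both anti-PD1 libraries than in both isotype libraries, though a single cell held 56.7% of the Basp1 UMIs in the *Aire*-/- isotype library. Ergic1, of transport between endoplasmic reticulum and Golgi, had 69.9, 21.5, 205 and 62.1 CPM, and 1 cell held 76.9% of its UMIs in the *Aire*-/- isotype library. Ly6c2, which has the near-identical neighbor Ly6c1, had 136, 14.3, 694 and 49.7 CPM, of which a single cell held every UMI in the *Aire*-/- isotype library, and without the 5 cells rich in Jchain its mean log2 ratio was 0.34. The anti-PD1 library of *Aire*+/+ also had the lowest median depth, 7 of 15 cells with fewer than 10 UMIs of the replication and mitosis lists, and 2 of 15 cells with 8 to 12 germinal center genes. The part of depth and of this mixture of cells in the differences between conditions was not tested. Among cells with at least 2 UMIs of Stmn1 and of the cell-cycle genes, 34 in all, the mean log2 ratio of Klf2 between treatments was 2.52 and between genotypes −2.08, and 52 genes were higher and 61 lower between treatments.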

How the data were processed

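The deposited tables hold UMI counts per gene and cell barcode, which the authors made with Cell Ranger (build GRCm38). Rows of 1 gene symbol were summed. Barcodes with fewer than 200 genes or over 20% mitochondrial UMIs were left out. Members and lists were chosen with earlier results of these data known. UMIs were summed over the cells of a group and library and scaled to CPM, and 10 CPM was added to both sides of a ratio. Genes had a mean of at least 20 CPM. A call was a log2 ratio of 1 or more in all 4 libraries or, between conditions, in both pairs. Detection used cells drawn down to 2000 UMIs. No test was run, as each condition is 1 library. Clopper-Pearson, Poisson and conditional exact intervals cover counting error. The lists were B lineage, DNA replication, mitosis, chromatin and tubulin, recirculation and quiescence, germinal center, dark and light zone, plasmablast, follicular, marginal zone, B1, atypical memory, pro-B and pre-B, immunoglobulin, B activation, ribosome biogenesis, glycolysis, MHC class II, DNA repair, survival, type I interferon, histone, T, NK, monocyte, neutrophil, erythroid, plasmacytoid and conventional dendritic, and stem genes. Genes named were those of the lists, by counts and with values past a log2 ratio of 1 in all 4 libraries or at 50 CPM, the genes of the selection, the 10 outside the lists in each direction with the largest smallest-of-4 ratio, and the 5 by genotype and by treatment with the largest smallest-of-2 ratio at a mean of 50 CPM. Some genes that met these limits are not reported here. Doublets were not removed, and alternatives without deep barcodes and without other lineages were run. Code used Python 3.11.15, numpy 2.4.6, scipy 1.17.1, pandas 2.3.3 and matplotlib 3.10.9, and was tested on simulated data.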

Additional observations from a re-analysis of the deposited data

Results flagged for a closer look

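The ratio of the share of cycling B cells under anti-PD1 to that under isotype lay on different sides of 1 in the genotypes, 0.967 in *Aire*+/+ and 1.17 in *Aire*-/-. The intervals of both hold 1, and the difference was not tested.

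The NK list in cycling B cells had log2 ratios of *Aire*-/- over *Aire*+/+ of −2.66 under isotype and 7.16 under anti-PD1, and of anti-PD1 over isotype of −3.50 in *Aire*+/+ and 6.32 in *Aire*-/-. A single cell held 341 of the 342 UMIs of the *Aire*-/- anti-PD1 library, and the difference was not tested.

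Replication-dependent histones had a log2 ratio of anti-PD1 over isotype of −1.35 in *Aire*+/+ and 1.14 in *Aire*-/-. A single cell held 81.8% of the list in the *Aire*-/- isotype library, and the difference was not tested.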

How the results depend on the processing

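Each condition is 1 pooled library with 8 to 15 cycling cells, so mouse-to-mouse spread is unknown and counts by genotype and treatment turn on a few molecules. No paired analysis was possible because the groups share a single replicate number and the results come from no test. A fit of genotype plus treatment over the 4 libraries, with 1 residual degree of freedom, was not run. Alternatives on cell weight, the deepest cell, Jchain-rich cells, at least 2 UMIs of Stmn1 and of the cell-cycle genes, defining markers of other lineages and a filter on the other Cd79a cells were added after seeing the data. Of 64 alternative values of the share and its ratios 53 stayed inside the interval of the reported value, as did 22 of 25 detection shares, and 134 of 156 ratios of lists with a tested gene moved by less than their spread over libraries. Between conditions less held: 8 of 22 gene counts by genotype and 7 of 22 by treatment stayed within 1.5 times the reported count, and 71 and 69 of 110 named genes within their spread, with 2 and 1 reversed. Asking for at least 3 Cd79a UMIs or dropping the quality filter left the same 50 cycling cells. Values under these settings could hardly move, which raises the counts above of values that held. Klf2 ran from −2.57 to −1.47 by genotype and from 1.41 to 5.498 by treatment, S1pr1 from 1.02 to 3.66 by treatment, so both kept their direction but not their size. Klf2 was within its spread in only 4 alternatives by genotype and 3 by treatment, and S1pr1 in 5 by treatment. For Klf2 that spread is narrow, as its ratios in both pairs were close. The cause of the moves below was not tested.

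Cells drawn down to 2000 UMIs first gave shares of 0.513%, 0.438% and 0.360% in the *Aire*+/+ isotype, *Aire*+/+ anti-PD1 and *Aire*-/- anti-PD1 libraries. Without the limit on Stmn1 the shares were 4.23%, 4.02%, 2.58% and 3.26%. Without barcodes of other lineages they were 0.221%, 0.246% and 0.182% in all but the *Aire*+/+ anti-PD1 library, and anti-PD1 over isotype in *Aire*+/+ was 2.76. That setting left out 38 cycling cells (76%), 21 of them by the conventional dendritic list alone, which holds Cst3. It left out 34.0% of the other Cd79a cells.

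Beside the reported 210 genes higher and 60 lower in cycling cells, adding 50 CPM gave 64 and 14, a filter at 100 CPM 71 and 24, a filter at 20 CPM in the other Cd79a cells 87 higher, and leaving out other lineages 51 and 31. Leaving out other lineages kept 37 and 8 of the reported genes. The lower genes were 37 in cells with at least 5000 UMIs, 22 without barcodes over 20000 UMIs and 29 with each cell weighted the same. Leaving out 1 library gave 233 to 277 higher and 70 to 121 lower.

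By genotype, beside 32 and 42, adding 1 CPM gave 69 and 96, adding 50 CPM 3 and 3, no filter 65 and 82, a filter at 100 CPM 6 and 3, leaving out other lineages, with 2 to 6 cells per library, 178 and 416, equal weight 62 and 80, leaving out the deepest cell 72 higher, and leaving out Jchain-rich cells 68 lower. By treatment, beside 34 and 39, these gave 94 and 82, 1 and 2, 67 and 61, 2 and 4, 312 and 515, 83 and 69, and 80 higher without the deepest cell, and at least 2 UMIs of Stmn1 and of the cell-cycle genes gave 52 and 61. Adding 1 CPM or dropping the filter kept every reported gene, but other settings lost many: of the reported genes higher and lower by genotype, 2 and 12 were kept without other lineages, 18 and 19 with equal weight and 11 and 25 without Jchain-rich cells, and by treatment 13 and 16, 17 and 29, and 20 and 21. Ly6a by genotype turned to −0.94 without other lineages and to −0.45 without Jchain-rich cells, and Ly6c2 by treatment to 0.34 without Jchain-rich cells.

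A germinal center gene was found without drawing down in 73.3% of the *Aire*+/+ isotype cells, 75.0% of the *Aire*-/- anti-PD1 cells and 70.0% of all.

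Mean log2 ratios of lists over the 4 libraries moved as follows. Without other lineages they were 2.53 (DNA replication), 1.84 (germinal center), −0.098 (plasmablast), −0.59 (B1), −0.803 (immunoglobulin), −0.12 (B activation), 0.92 (glycolysis), −0.38 (survival), −0.22 (monocyte), −0.13 (plasmacytoid dendritic) and −1.19 (conventional dendritic). With equal weight they were 2.84 (DNA replication), 1.902 (chromatin and tubulin) and 0.64 (immunoglobulin). Without the deepest cell it was 0.29 (immunoglobulin). Without the Jchain-rich cycling cells they were 0.13 (dark and light zone), −1.01 (plasmablast), 0.18 (B1), −1.09 (immunoglobulin), −0.35 (type I interferon) and −0.020 (monocyte). The other Cd79a cells kept their Jchain-rich cells there, so the plasmablast and immunoglobulin values are set by that choice. With at least 2 UMIs of Stmn1 and of the cell-cycle genes it was 0.11 (immunoglobulin).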
